A study of Mus musculus with 12 samples.

Results

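Myocardial infarction (MI) was compared with sham surgery in mouse heart tissue, gene by gene, in the libraries of the series that were sequenced to about the same depth. The comparison used 6 of the 12 libraries, 1 from each of 6 of the 10 mice: 3 MI mice and 3 sham mice. The libraries were chosen by their labels and sequencing depth, and not by the level of any gene. All mice were wild type. The MI mice had the left coronary artery tied off, and the sham mice were labelled as given vehicle. Neither vehicle nor an injection appears on the labels of the MI group, so the ligation and the lack of vehicle cannot be told apart. The labels used here give no strain, age, sex or time after surgery, and they do not say which region of the heart was taken. MI mice 2 and 3 each had an earlier library, of 27130817 or 30745429 counts, counted on another annotation, and these were left out. A further group of 4 infarcted mice, given the adenosine receptor agonist NECA by local delivery into the damaged muscle, entered the fit only to estimate the spread between mice.

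When a coronary artery is closed, the cardiomyocytes it supplies die. Neutrophils and then macrophages enter and clear the dead cells, and fibroblasts turn into myofibroblasts that lay down a scar of collagen. The muscle that survives is known to lower many genes of ion handling and fat oxidation and to raise fetal genes such as Myh7, the slow myosin heavy chain.

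The assay counted the 3' ends of messenger RNA. The 6 libraries held 959840 to 1330259 counts each and detected 14143 to 15580 genes. Levels are given below as CPM, counts scaled to a common library size of 1e6, on which 3 counts correspond to 2.2 to 3.34 CPM. The tissue carried its defining markers: Myh6, the main ventricular myosin heavy chain of the adult mouse, stood at 32020, 31440 and 26230 CPM in sham mice 1, 2 and 3 and at 25640, 25880 and 13980 CPM in MI mice 1, 2 and 3. All further triplets of values follow this order of mice. Xist, the RNA of the silenced X chromosome, lay between 0 and 0.981 CPM and Y-linked Ddx3y between 25.4 and 44.1 CPM in all 6 libraries.

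Some libraries stood apart from the rest of their group. Sham 3 carried RNA of atrium, fat and mesothelium: Myl4, the atrial myosin light chain, stood at 0, 0.819 and 1259 CPM in the sham mice against 6.25, 6.69 and 0 CPM in the MI mice, and Bmp10, an atrial growth factor, at 0, 0 and 824 CPM against 0, 0 and 0 CPM. Adipoq, the fat hormone adiponectin, was at 0, 0 and 101 CPM in the sham mice and at 23.2, 12.3 and 0 CPM in the MI mice, and the mesothelial gene Upk3b at 3.92, 9.83 and 182 and 89.3, 23.4 and 11.3 CPM. MI 3 held the highest levels of Myh7 (144, 185 and 93.3 CPM in sham, 284, 276 and 2652 CPM in MI) and of collagen genes. MI 2 was the only library with a count of the fast skeletal myosin Myh1 (0, 17.8 and 0 CPM in the MI mice), and MI 1 held the most immunoglobulin mRNA, with Ighm at 9.81, 4.91 and 127 CPM in the sham and 745, 174 and 29.1 CPM in the MI mice. Across the tested genes, the log2 CPM of sham 1 and sham 2 correlated at r = 0.954, whereas sham 3 correlated with them at 0.899 and 0.91 and with MI 1 at 0.935. MI 3 correlated with the other 5 libraries at 0.849 to 0.898. Summed over 12 atrial markers, the level was 664, 732 and 9794 CPM in the sham mice and 701, 756 and 4049 CPM in the MI mice, Nppa making up most of it in MI 3, where Myl4 and Bmp10 were both at 0. Summed over 12 mesothelial markers it was 24.5, 40.1 and 470.3 CPM and 299, 110.3 and 97.7 CPM. What these differences between single libraries contribute to the results below was not tested, except where a value without sham 3 or MI 3 is given.

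**Figure D1:**
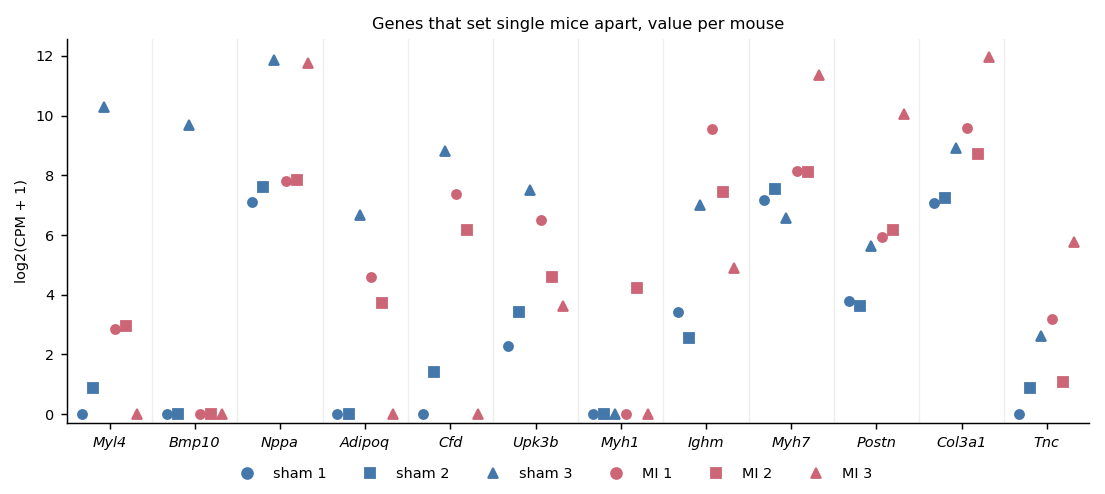
Level of 12 genes in each mouse as log2(CPM + 1), sham mice in blue and MI mice in red, with the marker shape giving the mouse number. Myl4 and Bmp10 are high in sham 3 alone, Myh7, Postn, Col3a1 and Tnc are highest in MI 3, and Nppa is high in both.

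Of 9505 genes tested, 4 were higher in MI (0.0421% of the genes tested) and 3 were lower (0.0316%) at an adjusted p under 0.05 in edgeR's quasi-likelihood test. The 4 that rose were Cd63, a tetraspanin of late endosomes and lysosomes; Ccl21a, a chemokine of lymphatic endothelium; Tcim, a small regulator of transcription and Wnt signalling; and the transcript 2410006H16Rik. The 3 that fell were Tfrc, the transferrin receptor that brings iron into cells; Alas1, the first enzyme of haem synthesis; and Tubb4b, a beta tubulin. In each of the 7, all 3 MI mice lay beyond all 3 sham mice. That separation alone was common: 679 genes (7.14%) had all MI mice above all sham mice, and 677 (7.12%) had all of them below. In all, 1139 genes had an unadjusted p under 0.05, of which 588 were higher and 551 lower in MI. The median log2 fold change over all genes tested was -0.01. The p-values measure the spread between these mice.

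The number of genes that passed depended on single mice. Without sham 3, 30 genes passed as higher and 20 as lower, among them 3 of the 4 and all 3 of the 7 named above. Without sham 2, edgeR called none in either direction (418 higher and 432 lower at an unadjusted p under 0.05), and without MI 3 it called only Tubb4b. The other counts, higher and lower, were 2 and 2 without sham 1, 4 and 6 without MI 1, and 4 and 2 without MI 2. Leaving out NECA mouse 1, 2 or 4 left 1 and 1, and leaving out NECA mouse 3 left 1 and 2. A fit of the 6 libraries alone, without the NECA group, called none (395 higher and 333 lower at an unadjusted p under 0.05), limma on log2 values called none (614 and 283), and DESeq2 called 3 and 5. With library totals unscaled, the split was 2 higher and 4 lower. Tubb4b passed in 19 of the 22 alternatives, Cd63 in 15, Tfrc in 14, Ccl21a and Alas1 in 11 each, and Tcim and 2410006H16Rik in 7 each. All 7 kept their direction in all 22.

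**Figure D2:**
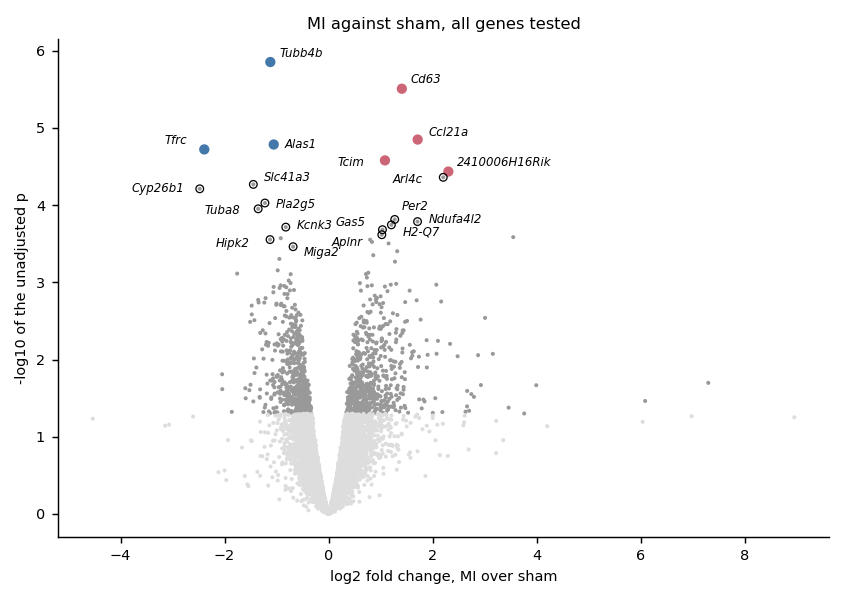
Log2 fold change of MI over sham against -log10 of the unadjusted p for the 9505 genes tested. Filled coloured points are the 7 genes past an adjusted p of 0.05, open circles the genes next in rank named in the text, and dark grey points the genes with an unadjusted p under 0.05.

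The 2 genes of iron and haem metabolism that passed both fell. Cells take up transferrin-bound iron through Tfrc, and mitochondria build much of that iron into haem, a pathway that Alas1 opens. Tfrc stood at 219, 168 and 96.3 CPM in the sham mice and 40.2, 31.2 and 19.7 CPM in the MI mice. Its highest MI value was under its lowest sham value, and the log2 fold change was -2.39 ± 0.34 (SE; edgeR adjusted p = 0.036). Sham 3 was the lowest of the sham mice, and without it the adjusted p was 8.6e-06, against 0.30 without MI 3, 0.0904 without MI 2 and 0.241 without sham 2. Without NECA mouse 1, 2 or 4 it was 0.0581, 0.0764 and 0.0612. Alas1 stood at 291, 251 and 208 CPM in sham and 157, 114 and 89.3 CPM in MI, again with no overlap, and its log2 fold change was -1.05 ± 0.19 (edgeR adjusted p = 0.036). Its adjusted p was 0.141, 0.241, 0.0888 and 0.109 without sham 1, sham 2, MI 2 and MI 3, and 0.0612 to 0.0818 without single NECA mice. Of the 21 genes tested on the iron and haem list, 6 were higher and 15 lower in MI, and only these 2 passed (median log2 fold change -0.06, -0.14 without MI 1 to -0.02 without sham 1). Here and below, the values after a list's median are its lowest and highest with 1 of the 6 mice left out. All MI mice lay below all sham mice in 4 of the 21 and above them in 1, against 7.12% and 7.14% of all genes tested. Besides Tfrc and Alas1, these included Cpox, a later enzyme of haem synthesis, at 25.5, 19.6 and 23.5 CPM in sham and 12.5, 16.7 and 14.1 CPM in MI. The iron transporter Slc11a2 was at 29.4, 19.6 and 23.5 and 19.6, 16.7 and 17.9 CPM, with sham 2 and MI 1 practically level. Hmox1, the haem-degrading oxygenase, was higher in MI at 2.94, 4.09 and 8.08 and 14.3, 12.3 and 12.2 CPM (log2 fold change 1.29 ± 0.42, edgeR adjusted p = 0.247). The ferritin chains, which store iron, differed from each other. Ftl1 stood at 221, 178 and 344 and 391, 281 and 616 CPM with sham 3 inside the MI range, and Fth1, the more abundant of the pair, had a log2 fold change of -0.01 ± 0.17.

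**Figure D3:**
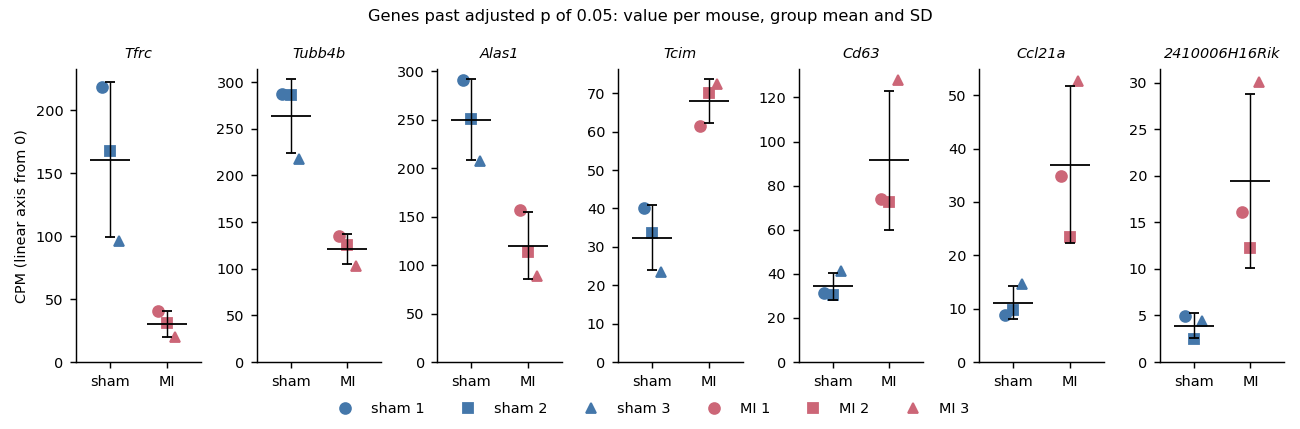
CPM of the 7 genes that passed, 1 point per mouse, with the group mean (horizontal line) and SD (bars), each axis linear from 0. The 3 sham and 3 MI points do not overlap in any panel.

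Tubb4b was the gene with the smallest p. Alpha and beta tubulins pair to form microtubules, which in cardiomyocytes carry cargo and resist shortening. Tubb4b stood at 287, 287 and 218 CPM in the sham mice and 135, 126 and 103 CPM in the MI mice (log2 fold change -1.12 ± 0.17, edgeR adjusted p = 0.0133). It kept a p under the threshold without any single one of the 10 mice except sham 2, where the adjusted p was 0.186. A pair of alpha tubulins that are abundant in striated muscle lay the same way without passing. Tuba4a was at 1134, 1090 and 584 CPM in sham and 438, 401 and 148 CPM in MI (log2 fold change -1.51 ± 0.39, adjusted p = 0.247), and Tuba8 at 256, 228 and 115 and 101, 74.7 and 57.3 CPM (-1.35 ± 0.26, adjusted p = 0.0883). Neither overlapped between the groups, and in both sham 3 was the lowest sham mouse and MI 3 the lowest MI mouse. Of the remaining 7 tubulins tested, 4 were lower and 3 higher, all with overlap. Tuba1b was at 213, 226 and 278 and 220.5, 195 and 214 CPM, Tubb5 at 94.2, 96.6 and 124 and 125, 104 and 135 CPM, and Tuba1a, at 70.6, 59.8 and 109.5 and 74.1, 111 and 184 CPM, had a positive log2 fold change of 0.62. Over the 10 members tested, 3 were higher and 7 lower (median -0.20, -0.30 without MI 3 to -0.09 without MI 2). Tubulin genes are alike in sequence, and how the counting divided reads among them can bear on their single values.

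Cd63 rose. It stood at 31.4, 30.3 and 41.1 CPM in the sham mice and 74.1, 72.4 and 128 CPM in the MI mice, with MI 3 the highest (log2 fold change 1.41 ± 0.22, edgeR adjusted p = 0.0147). The adjusted p was 0.0674 without MI 3, 0.0771 without sham 1 and 0.186 without sham 2. Of 18 tetraspanins tested, 12 were higher and 6 lower in MI (median 0.19, 0.03 without sham 2 to 0.22 without sham 1). All MI mice lay above all sham mice in 7.14% of all genes tested and in 4 of the 18. Besides Cd63 these were Tspan13, at 29.4, 41 and 29.4 and 62.5, 54.6 and 63.9 CPM (log2 fold change 0.86 ± 0.21, adjusted p = 0.157), Tspan4, at 25.5, 20.5 and 26.4 and 33.9, 39 and 48.9 CPM, and Cd81, at 236, 197 and 237 and 263, 269.7 and 292 CPM. Tspan7, an endothelial and neuronal tetraspanin, was level at 79.4, 89.3 and 82.3 and 81.2, 83.6 and 81.8 CPM. Cd63 also sits in the lysosomal membrane, and of 29 lysosomal genes tested 22 were higher in MI (median 0.29, 0.03 without MI 3 to 0.44 without sham 3). The abundant members of that list differed little, with Ctsd at 966, 872 and 801 and 872, 832 and 927 CPM and Lamp1 at 384, 382 and 354 and 409, 347 and 366 CPM. Ctsk, a collagen-degrading cathepsin, was at 4.9, 2.46 and 2.94 and 7.14, 4.46 and 31.9 CPM, and so was high in MI 3 alone.

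Ccl21a rose from 8.83, 9.83 and 14.7 CPM in the sham mice to 34.8, 23.4 and 52.6 CPM in the MI mice (log2 fold change 1.71 ± 0.31, edgeR adjusted p = 0.036). The chemokine guides dendritic cells and T cells through Ccr7. Its locus holds near-identical copies, and reads shared among them make the value of the single gene uncertain. The adjusted p was 0.119, 0.241 and 0.208 without sham 1, sham 2 and MI 3, and 0.0581 to 0.0758 without single NECA mice. Of the 6 other genes of lymphatic endothelium tested, 3 were higher and 3 lower, all with overlap, and the median with Ccl21a included was 0.07, -0.20 without MI 1 to 0.29 without sham 3. Pdpn, the surface protein podoplanin, was at 1.96, 4.91 and 14 and 15.2, 6.69 and 21.6 CPM. Lyve1, the hyaluronan receptor of lymphatic vessels, was at 7.85, 9.83 and 23.5 and 16.1, 17.8 and 16 CPM, and Flt4, the receptor for lymphatic growth factors, at 23.5, 22.1 and 14.7 and 27.7, 14.5 and 19.7 CPM.

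Tcim stood at 40.2, 33.6 and 23.5 CPM in sham and 61.6, 70.2 and 72.4 CPM in MI (log2 fold change 1.08 ± 0.20, edgeR adjusted p = 0.0417). Here sham 3 was the lowest of all mice and MI 1 to MI 3 lay close together, unlike most genes below, in which MI 3 was the extreme. 2410006H16Rik stood at 4.9, 2.46 and 4.41 CPM in sham, near the level of 3 counts, and at 16.1, 12.3 and 30.1 CPM in MI (log2 fold change 2.30 ± 0.44, edgeR adjusted p = 0.0498). Both passed the threshold narrowly. The adjusted p of Tcim was 0.0549 to 0.241 without any single mouse other than sham 1, and that of 2410006H16Rik was 0.0566 to 0.477 without any single mouse other than MI 2 and sham 3.

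The NECA-treated mice also carried an infarct. Their values are set beside the same sham mice, so they share the controls of the comparison. The 4 NECA mice ranged from 32.1 to 55.2 CPM for Tfrc, 128 to 152 CPM for Alas1 and 118 to 148 CPM for Tubb4b, all under the lowest sham mouse. They ranged from 51.2 to 72.9 CPM for Cd63 and 24 to 32.5 CPM for Ccl21a, all above the highest sham mouse. For Tcim they ranged from 37.6 to 51.1 CPM, which overlaps the sham mice. For 2410006H16Rik they ranged from 4.93 to 8.62 CPM, and the lowest, NECA mouse 4, was level with sham 1 at 4.9 CPM.

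The genes next in rank with an established name and no overlap between the groups were close to the threshold without passing. On the higher side Arl4c, a small GTPase of membrane traffic, stood at 1.96, 2.46 and 5.88 CPM in sham and 15.2, 15.6 and 19.7 CPM in MI (log2 fold change 2.20 ± 0.43, adjusted p = 0.0518). Per2, a repressor of the circadian clock, followed at 16.7, 14.7 and 7.35 and 28.6, 35.7 and 28.2 CPM, and Ndufa4l2, a hypoxia-induced mitochondrial protein that is also a pericyte marker, at 7.85, 9.01 and 3.67 and 13.4, 24.5 and 29.1 CPM. Both had an adjusted p of 0.111. The class I histocompatibility gene H2-Q7, the growth-arrest RNA Gas5 and the apelin receptor Aplnr had log2 fold changes of 1.21, 1.03 and 1.02, with adjusted p between 0.114 and 0.121. Reads of H2-Q7 can be shared with its near-identical neighbours.

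On the lower side the magnesium transporter Slc41a3 stood at 68.7, 65.5 and 57.3 CPM in sham and 24.1, 35.7 and 11.3 CPM in MI (log2 fold change -1.45 ± 0.28, adjusted p = 0.0568). Cyp26b1, which breaks down retinoic acid, was at 31.4, 12.3 and 13.2 and 4.46, 3.34 and 1.88 CPM (-2.48 ± 0.50, adjusted p = 0.0583), with its MI values near the level of 3 counts. The phospholipase Pla2g5 was at 26.5, 36.9 and 40.4 and 17.9, 12.3 and 14.1 CPM, and the background potassium channel Kcnk3 at 298, 248 and 238 and 170.5, 168 and 104 CPM. The kinase Hipk2 and the mitochondrial fusion factor Miga2 completed the genes of this rank, with log2 fold changes of -1.13 and -0.68. Miga2 had the tightest MI values of these, 51.8, 50.1 and 52.6 CPM against 72.6, 88.4 and 86.7 CPM in sham.

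Beyond single genes, lists of genes were described by their counts and medians, and no gene on any list named from here on passed the test unless stated. Counts of list members without overlap stand against 7.14% of all genes tested with all MI mice above all sham mice. The share with all of them below was 7.12%. In bulk tissue, fewer cells of a type and less RNA per cell cannot be told apart. Genes of macrophages and monocytes were higher in MI in all 17 tested, with a median log2 fold change of 1.27 against -0.01 over all genes tested. The mean of the list relative to the sham average was -0.19, -0.41 and 0.59 in the sham mice and 0.95, 0.37 and 1.96 in the MI mice, on the log2 scale. Sham 3 lay above MI 2, and the order was led by MI 3. Lyz2, the lysozyme of phagocytes, was at 119, 87.6 and 189 and 257, 177 and 518 CPM, and Itgam, the integrin CD11b of monocytes and macrophages, at 1.96, 1.64 and 4.41 and 17.9, 6.69 and 43.2 CPM (log2 fold change 3.01 ± 0.77, adjusted p = 0.247). Cd68, a lysosomal protein of macrophages, was at 4.9, 4.91 and 3.67 and 7.14, 8.91 and 20.7 CPM, and Adgre1, which encodes F4/80, at 3.92, 0.819 and 13.2 and 17.9, 12.3 and 31.9 CPM. Itgam, Cd68 and the Fc receptor Fcgr3 were the 3 tested members with no overlap. Ccr2, a receptor of recruited monocytes, was too low to test and had none either, at 0.981, 0.819 and 4.41 and 8.93, 8.91 and 17.9 CPM, nor had Ms4a6c. The median was 1.57 without sham 3 and 0.53 without MI 3.

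Of 15 genes tested on the list of resident and reparative macrophages, 12 were higher (median 0.44, 0.27 without sham 2 to 0.91 without sham 3). Of the markers of resident macrophages, Cd163, F13a1 and Cbr2 had log2 fold changes of -0.37, -0.05 and -0.51, and Folr2, Mrc1, Mertk and Lyve1 had 1.02, 0.81, 0.64 and 0.23. Gpnmb, a marker of lipid-laden and reparative macrophages, was at 0.981, 2.46 and 4.41 and 4.46, 7.8 and 12.2 CPM. Spp1, the osteopontin of reparative macrophages, was at 0 in all 3 sham mice and at 2.68, 1.11 and 36.6 CPM in MI. All 6 genes of class II antigen presentation tested were higher (median 1.10, 0.49 without MI 3 to 1.75 without sham 3), among them H2-Ab1 at 18.6, 14.7 and 35.3 and 53.6, 24.5 and 92.1 CPM and Cd74, the invariant chain, at 52, 59 and 107 and 132, 79.1 and 198 CPM. None was free of overlap, with sham 3 above MI 2 in all 6. All 5 genes tested of the B cell and plasma cell list were higher (median 2.29, 0.93 without MI 1 to 5.44 without sham 3). The list mean was highest in MI 1, though Cd74, also on this list, was highest in MI 3. The immunoglobulin light chain Igkc stood at 413, 75.8 and 15 CPM in the MI mice against 0, 0 and 45.6 CPM in sham.

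Markers of neutrophils and of T and NK cells had few counts. None of 16 neutrophil markers had enough counts to be tested, and their summed level was 21.6, 11.5 and 15.4 CPM in the sham mice and 8.04, 13.4 and 22.6 CPM in the MI mice. None of 18 T and NK cell markers was tested, and their summed level was 2.94, 1.64 and 55.9 CPM and 11.6, 4.46 and 9.4 CPM, highest in sham 3. The early cytokines Il1b, Il6 and Tnf lay at 0 to 4.7 CPM in all 6 mice. Of 10 tested cytokine and adhesion genes all were higher in MI (median 0.84, 0.37 without MI 3 to 1.10 without sham 3). Vcam1, the adhesion molecule of activated endothelium, was at 12.8, 20.5 and 19.8 and 21.4, 22.3 and 51.7 CPM, and the chemokine Cxcl14 at 19.6, 9.83 and 6.61 and 22.3, 24.5 and 19.7 CPM. The monocyte chemokine Ccl8 was too low to test but was at 0 in every sham mouse and at 8.04, 5.57 and 4.7 CPM in MI. Complement genes were higher in 15 of 18 (median 0.51, 0.22 without MI 3 to 1.30 without sham 3). C1s1, a protease of the classical pathway, was at 18.6, 19.6 and 61.7 and 106, 64.6 and 97.7 CPM without overlap. C3, the central component, was at 161, 211 and 864 and 822, 427 and 308 CPM and was highest in sham 3, the mouse with the most fat and mesothelial RNA.

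**Figure D4:**
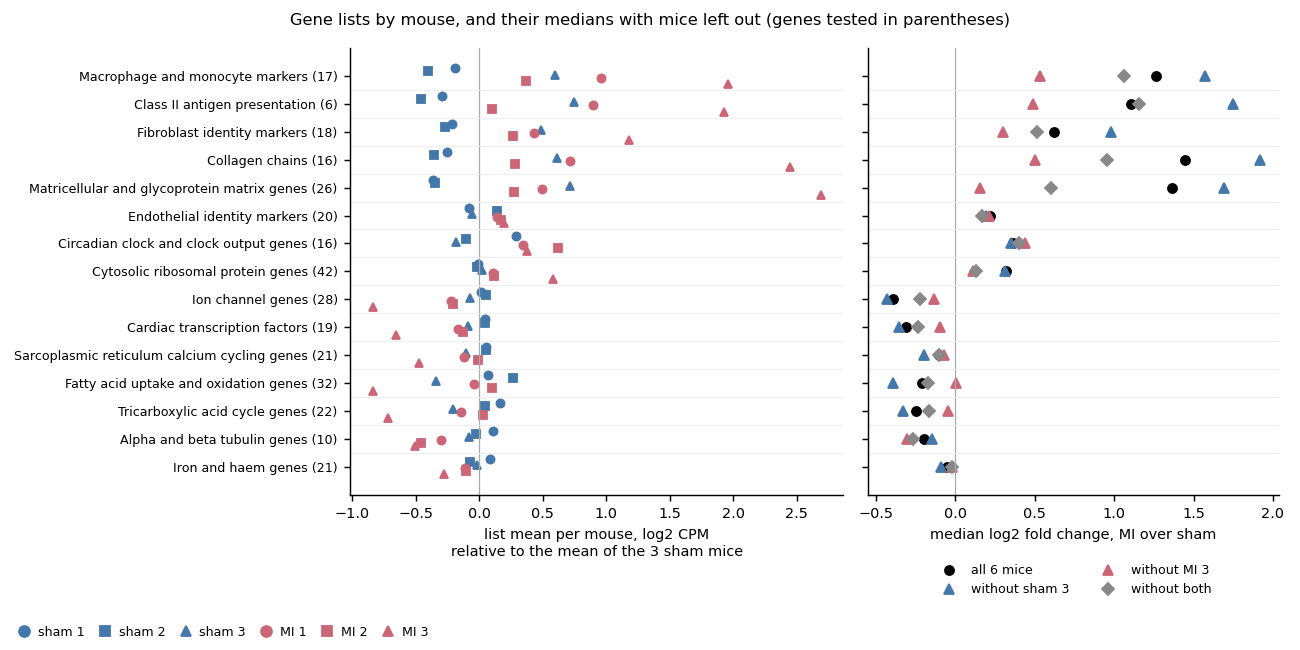
Left, mean log2 CPM of 15 gene lists in each mouse relative to the average of the 3 sham mice, with the number of genes tested in parentheses. Right, median log2 fold change of each list with all 6 mice and without sham 3, MI 3 or both. MI 3 is the outermost mouse in the immune, matrix, channel and metabolic lists, and in the clock list the outermost mouse is MI 2.

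Nearly all matrix genes tested were higher in MI, by far most in MI 3. All 16 collagen chains tested were higher in MI (median 1.45), but none separated the groups. The fibrillar chains of scar were at 73.6, 92.5 and 180.00 and 203, 128 and 1802 CPM for Col1a1 and at 132, 149.9 and 485 and 763, 421 and 3975 CPM for Col3a1. Sham 3 exceeded MI 2 in both, and MI 3 stood far above every other mouse. The basement membrane chain Col4a1, at 460.00, 509 and 332 and 409, 359.9 and 646 CPM, had a log2 fold change of 0.12. The median of the list was 1.92 without sham 3, 0.50 without MI 3 and 0.95 without both.

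All 26 matricellular and glycoprotein genes tested were higher too (median 1.36, 0.15 without MI 3 to 1.74 without MI 1), with no overlap in 6. Postn, the periostin secreted by activated fibroblasts, was at 12.8, 11.5 and 48.5 CPM in sham and 60.7, 71.3 and 1063 CPM in MI. Sparc, a collagen-binding glycoprotein, was at 296, 274 and 400.5 and 514, 451 and 2283 CPM, and Ccn1, a matrix-bound signal of stressed cells, at 21.6, 18 and 21.3 and 35.7, 23.4 and 60.1 CPM (log2 fold change 0.98 ± 0.28, adjusted p = 0.234). Of the 21 enzymes of matrix crosslinking and remodelling, 19 were higher. The gelatinase Mmp2 was at 25.5, 15.6 and 39 and 82.1, 70.2 and 298 CPM (log2 fold change 2.48 ± 0.70, adjusted p = 0.273), and the crosslinking enzyme Lox at 6.87, 6.55 and 11 and 13.4, 12.3 and 132 CPM. In both, MI 1 and MI 2 also lay above every sham mouse, though far below MI 3.

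Genes of activated fibroblasts were high in MI 3. Cthrc1, a marker of matrix-producing fibroblasts, was at 0, 0 and 0.735 CPM in sham and 1.79, 1.11 and 74.2 CPM in MI, near the level of single counts in all mice but MI 3. Cilp, a matrix protein, was at 5.88, 9.83 and 14.7 and 10.7, 10.03 and 169 CPM, with MI 1 and MI 2 inside the sham range. The list's median over 11 genes was 2.60, 0.00 without MI 3 to 3.12 without MI 1. Acta2 and Tagln, contractile proteins of myofibroblasts and smooth muscle, had log2 fold changes of -0.47 and 0.08. General fibroblast genes were higher in 17 of 18 (median 0.62, 0.30 without MI 3 to 0.98 without sham 3), 6 of them without overlap. Ddr2, a collagen receptor, was at 17.6, 16.4 and 34.5 and 34.8, 37.9 and 44.2 CPM, Htra3, a secreted protease, at 71.6, 72.1 and 86 and 94.6, 97 and 189.8 CPM, and Pdgfra, a defining receptor of cardiac fibroblasts, at 36.3, 24.6 and 50.7 and 40.2, 24.5 and 56.4 CPM.

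Vessel genes differed in both directions. Of 20 endothelial genes, 15 were higher and 5 lower (median 0.22, 0.17 without MI 2 to 0.33 without sham 2). The list mean relative to sham was -0.08, 0.14 and -0.06 in the sham mice and 0.14, 0.17 and 0.19 in the MI mice, so sham 2 was level with MI 1. Cav1, the caveolar coat protein, was at 186, 231 and 218 CPM in sham and 311, 315 and 339 CPM in MI (log2 fold change 0.60 ± 0.16, adjusted p = 0.229). Ly6c1, a capillary surface protein, was at 75.5, 79.4 and 47.8 and 83.9, 111 and 115 CPM, and Egfl7, a secreted endothelial factor, at 88.3, 119 and 83 and 127, 133 and 143 CPM. The pan-endothelial adhesion molecule Pecam1 was level at 144, 135 and 158 and 140.2, 167 and 155 CPM. Vwf, the von Willebrand factor of larger vessels and endocardium, was lower in MI at 88.3, 77 and 223 and 66.1, 75.8 and 48.9 CPM, sham 3 being far above the other sham mice. Among pericyte genes, Rgs5, a regulator of G protein signalling that marks pericytes, was at 365, 338 and 249 and 462, 507 and 596 CPM (log2 fold change 0.72 ± 0.18, adjusted p = 0.219), and Colec11 at 15.7, 7.37 and 2.94 and 19.6, 18.9 and 23.5 CPM. Cspg4, another pericyte marker, was level at 36.3, 29.5 and 35.3 and 28.6, 33.4 and 35.7 CPM, and the list's median was 0.11, 0.10 without MI 1 to 0.37 without MI 2.

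Most ion channel genes lay lower in MI. Ion channels carry the action potential: sodium current starts it, calcium current sustains it and potassium currents end it. Of 28 channel genes tested, 21 were lower and 7 higher (median -0.39). All MI mice lay below all sham mice in 7.12% of all genes tested and in 8 of the 28. These 8 were all potassium or pacemaker channels or their subunits. Kcnh2, which carries the rapid delayed rectifier current, was at 123, 85.2 and 127 CPM in sham and 70.5, 62.4 and 28.2 CPM in MI (log2 fold change -1.06 ± 0.26, adjusted p = 0.229). Kcnj12, an inward rectifier, was at 21.6, 20.5 and 18.4 and 12.5, 10.03 and 4.7 CPM. The pacemaker channels Hcn2 and Hcn4 were at 32.4, 24.6 and 16.2 and 17.6, 13.9 and 26.4 CPM in sham and at 15.2, 10.03 and 11.3 and 13.4, 4.46 and 6.58 CPM in MI. Cacna1c, the L-type calcium channel, had a log2 fold change of 0.05 ± 0.17. The list's median was -0.13 without MI 3 and -0.43 without sham 3.

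Calcium release and re-uptake genes were split. Ryr2, the release channel of the sarcoplasmic reticulum, was at 1237, 1192 and 1044 CPM in sham and 767, 788 and 423 CPM in MI (log2 fold change -0.81 ± 0.22, adjusted p = 0.229). Its neighbours at the junction of the membranes lay the same way: Jph2, which holds the membranes together, at 581, 532 and 378 and 380.3, 319.8 and 217 CPM; the calcium buffer Casq2 at 1259, 970.4 and 655 and 722, 641 and 448 CPM; and the sodium-calcium exchanger Slc8a1 at 523, 421 and 299 and 299, 256 and 161 CPM. In these 3, the highest MI value lay above or level with sham 3 and under sham 1 and sham 2. Pln, which inhibits the calcium pump, was even at 4219, 4071 and 2698 and 4025, 4322 and 2514 CPM, and the pump itself, Atp2a2, was at 10840, 10820 and 8775 and 8643, 8853 and 3191 CPM, so that only MI 3 stood clearly below. Sri, a calcium-binding regulator of Ryr2, went the other way at 28.4, 23.8 and 24.2 and 35.7, 41.2 and 49.8 CPM. Over the list of 21, 15 were lower and 6 higher (median -0.10, -0.30 without MI 2 to -0.07 without MI 3). Atp1b1, a beta subunit of the sodium pump, was at 258, 242 and 226 and 201, 206 and 132 CPM, without overlap. The magnesium exporter Slc41a1 was at 89.2, 90.1 and 84.5 and 66.1, 70.2 and 49.8 CPM, and with Slc41a3 both members of that family on the list were below sham in all 3 MI mice.

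**Figure D5:**
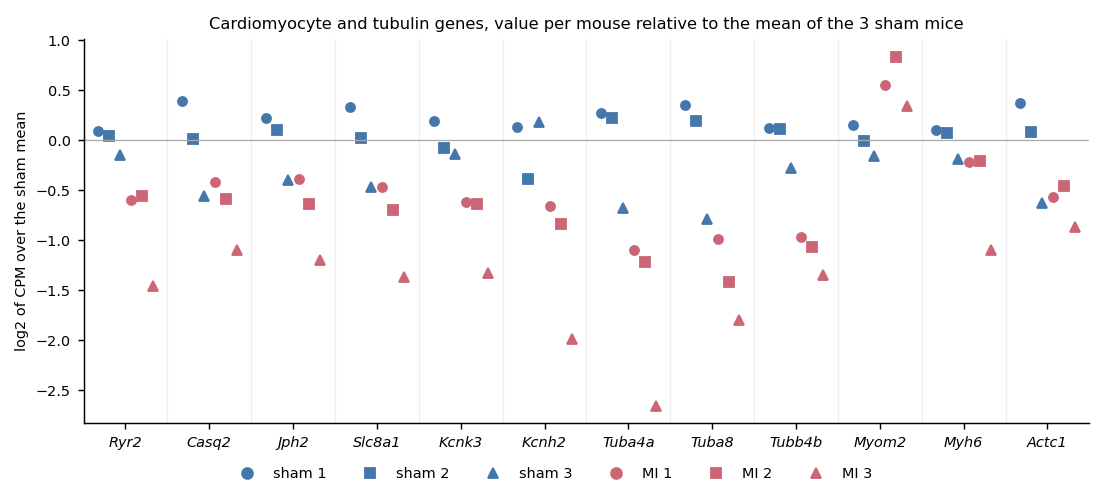
Log2 ratio of CPM to the mean of the 3 sham mice for 12 cardiomyocyte and tubulin genes, 1 point per mouse. MI 3 is the lowest mouse for every gene but Myom2, and sham 3 is the lowest sham mouse for most.

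Transcription factors of heart muscle were lower in 16 of 19 (median -0.31, -0.39 without MI 2 to -0.10 without MI 3). Gata4 was at 126, 111 and 101 and 86.6, 81.3 and 63.9 CPM, Tbx20 at 92.2, 95.8 and 112 and 78.6, 82.5 and 81.8 CPM and Myocd, the coactivator of muscle gene expression, at 31.4, 38.5 and 36 and 25, 27.9 and 11.3 CPM, each without overlap. Sarcomere genes as a list differed little (7 higher, 15 lower, median -0.09, -0.25 without sham 3 to 0.04 without sham 1, and 0.00 with unscaled library totals). Single members stood out in both directions. Myh7 was higher in all 3 MI mice, as given above, and Myom2, an M-band protein, was at 948, 848 and 767 and 1253, 1525 and 1082 CPM (log2 fold change 0.59 ± 0.18, adjusted p = 0.247). Actc1, cardiac actin, was at 12580, 10290 and 6295 and 6583, 7086 and 5339 CPM. Of the stretch and natriuretic genes, Nppa was at 137, 193 and 3748 and 224, 227 and 3455 CPM and Nppb at 102, 75.3 and 92.6 and 79.5, 84.7 and 251 CPM. Nppa is also an atrial gene and its sham 3 value came with high Myl4, whereas MI 3 had Myl4 at 0. Xirp1 and Flnc, 2 proteins of strained and repairing muscle, were lower in every MI mouse, Flnc at 414, 479 and 376 and 342, 263 and 204 CPM.

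Genes of energy metabolism were lower by small amounts, mainly in MI 3. Of 32 genes of fatty acid uptake and oxidation 29 were lower (median -0.21, -0.39 without sham 3 to 0.00 without MI 3), and of 22 genes of the tricarboxylic acid cycle 21 were lower (median -0.25, -0.39 without MI 2 to -0.05 without MI 3). The member with the smallest p was Idh3a, a subunit of isocitrate dehydrogenase, at 503, 445 and 412 CPM in sham and 328, 401 and 232 CPM in MI. Acsl1, which activates fatty acids, was at 616, 680.5 and 562 and 531, 549 and 235 CPM, and Cpt1b, the muscle gate of mitochondrial import, at 593, 611 and 378 and 548, 544 and 329.8 CPM. Cpt1a, the form of that gate found in liver and fetal heart, was one of the 3 that were higher, at 37.3, 53.2 and 44.1 and 53.6, 88 and 53.6 CPM without overlap. Pdk4, which blocks glucose oxidation in fasting, was at 81.4, 605 and 129 and 127, 241 and 40.4 CPM and varied more within the groups than between them. Nuclear-encoded respiratory chain subunits had a median over 37 genes of -0.10, -0.24 without sham 3 to 0.00 without sham 1. Glycolytic and hypoxia genes had a median over 24 genes of -0.24, -0.32 without sham 3 to -0.14 without MI 3. Among them, Egln3, a hypoxia-induced prolyl hydroxylase, was lower at 83.4, 98.3 and 47 and 45.5, 44.6 and 30.1 CPM (log2 fold change -0.92 ± 0.24, adjusted p = 0.229).

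Most clock genes were higher in MI, and here the outermost mouse was MI 2 and not MI 3. Per1, Per2 and Dbp are driven by the clock's activators Clock and Arntl (Bmal1), and Dbp, Tef and Hlf are related factors that pass the rhythm on to other genes. Of 16 clock genes tested, 13 were higher in MI (median 0.36, 0.32 without MI 1 to 0.45 without sham 1), 5 of them without overlap. Per1 was at 46.1, 36.9 and 15.4 CPM in sham and 53.6, 73.5 and 68.6 CPM in MI (log2 fold change 1.02 ± 0.31, adjusted p = 0.247), and Hlf at 16.7, 15.6 and 29.4 and 43.8, 40.1 and 33.8 CPM. Dbp was at 144, 96.6 and 60.3 and 154, 159 and 146 CPM, with sham 1 close to the MI mice and sham 3 far below, and Per3 at 49, 22.1 and 22.1 and 47.3, 88 and 80.8 CPM, with sham 1 above MI 1. Clock was lower at 33.3, 29.5 and 42.6 and 25.9, 29 and 21.6 CPM, and Nr1d1, a repressor that peaks earlier than Per2, was level at 112, 111 and 109 and 109.8, 89.2 and 91.2 CPM. The list mean relative to sham was 0.29, -0.11 and -0.18 in the sham mice and 0.34, 0.62 and 0.38 in the MI mice, so sham 1 lay near MI 1. The labels used here give no hour of collection, and its part in these values was not tested. Glucocorticoid-responsive genes, which share Per1, were higher in 13 of 16 (median 0.35, 0.32 without sham 3 to 0.41 without MI 3), with Tsc22d3, an anti-inflammatory target of the receptor, at 45.1, 49.1 and 47.8 and 77.7, 63.5 and 96.8 CPM and the receptor gene Nr3c1 at 56.9, 54 and 77.9 and 68.8, 60.2 and 63.9 CPM. Immediate early genes were higher in 15 of 18 (median 0.37, 0.13 without MI 3 to 0.56 without MI 1), among them Klf6, a zinc finger factor of injured tissue, at 26.5, 30.3 and 36.7 and 50.00, 46.8 and 80.8 CPM.

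Genes of protein synthesis were higher in MI, most of all in MI 3. Of 42 cytosolic ribosomal protein genes 41 were higher in MI (median 0.32, 0.11 without MI 3 to 0.39 without MI 2), and 10 were without overlap. The list mean relative to sham was -0.01, -0.02 and 0.02 in the sham mice and 0.11, 0.12 and 0.58 in the MI mice, so each MI mouse lay above each sham mouse and MI 3 lay far above the others. Rpl19 was at 192, 202 and 224 and 246, 251 and 375 CPM, Rps9 at 234, 232 and 207 and 274, 321 and 363 CPM, and Rps2, the exception, at 662, 693 and 519 and 533, 532 and 493 CPM. Ribosomal protein genes have many pseudogene copies that can take part of their reads.

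Among the MI mice, MI 3 differed most from the others. MI 1 and MI 2 correlated with each other at 0.936, with the 3 sham mice at 0.913 to 0.935, and with MI 3 at 0.898 and 0.883. Of the 1139 genes with an unadjusted p under 0.05, MI 3 was the MI mouse farthest to the side of the difference in 821 (72.1%), MI 2 in 174 (15.3%) and MI 1 in 144 (12.6%). Both the genes and the side came from a fit that included MI 3, which favours the mouse that differs most. The same share over all genes tested was not computed, so 72.1% is no result about these genes. With both sham 3 and MI 3 left out, a choice made after these values had been seen, 28 genes passed as higher (0.293% of 9560 tested) and 41 as lower (0.429%), 5 of the 7 genes above among them. For all 69 genes, MI 3, which took no part in that fit, lay beyond sham 1 and sham 2 on the side of MI 1 and MI 2. The share was 59.7% over all 9560 genes of the fit. The 69 were picked by the levels of the same mice that MI 3 and sham 3 are compared with here. That favours high shares among them, so these shares are no independent test. Sham 3 also lay beyond sham 1 and sham 2 toward the MI mice in many of the 69, such as Vim, though not in others, such as Myom2. Sham 3 lay on the sham side of MI 1 and MI 2 in 34 of the 69 (49.3%), against 42.9% of all genes. In the 28 higher genes it did so in 8, and in the 41 lower genes in 26.

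Among the 41 genes lower in that fit were Tuba4a, Tuba8 and Tubb4b; the calcium genes Ryr2, Jph2, Casq2, Slc8a1 and Srl, a calcium-binding protein of the reticulum; the potassium channel Kcnk3; and Actc1. For Ryr2 the log2 fold change was -0.65 (edgeR adjusted p = 0.00835), for Tuba4a -1.41 (adjusted p = 2.72e-10) and for Jph2 -0.67 (adjusted p = 0.00219). With all 6 mice, their edgeR adjusted p was 0.229, 0.247 and 0.238. The mice were left out after their values were seen, so the smaller p-values are no independent test. Bdh1, which makes and uses ketone bodies, was lower as well, at 167, 138 and 72.8 CPM in sham and 71.4, 82.5 and 47.9 CPM in MI. Sham 3 was not on the sham side of MI 1 and MI 2 for Jph2, Casq2, Slc8a1, Actc1 and Bdh1. Of the lower genes named here, only Tubb4b passed with all 6 mice. Among the 28 higher genes were Vim, the intermediate filament of stromal cells, at 104, 102 and 310.1 and 252, 281 and 532 CPM; Anxa1, an inhibitor of inflammation, at 6.87, 9.01 and 40.4 and 46.4, 35.7 and 63 CPM; the translation factor Eef1a1, at 478, 461 and 1310 and 986, 837 and 1664 CPM; and Adgre1 and H2-Eb1. Sham 3 was inside or above the MI 1 to MI 2 range in these 5 genes, and they did not pass with all 6 mice. Myom2 and Hlf were higher in this fit, with sham 3 on the sham side in both (log2 fold changes 0.62 and 1.38, edgeR adjusted p = 0.00203 and 0.00814). With all 6 mice, their adjusted p was 0.247 and 0.234.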

How the data were processed

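RNA of mouse heart tissue was read as 3' ends by a modified CEL-Seq2 method without pooling and with 9 cycles of PCR, per the labels' protocols. The submitters' processing notes name STAR, RSEM, FastQC 0.11.9 and the build GRCm39 without giving their order. The values deposited by the authors are expected counts per gene, which were rounded to whole counts. The treatment of molecular identifiers and of strand is not given in the sources used here. Of 57054 rows, the 56647 with a value in every column were kept. Symbols came from GENCODE M21 through the Ensembl gene IDs, for 52029 rows, and the rows without a name held 0.163 to 0.21% of the counts. A log2 fold change or log2 CPM in the text was computed here, and none was deposited by the authors.

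The test was edgeR's (4.0.16, under R 4.3.3), with filterByExpr, TMM scaling, and a robust quasi-likelihood fit of the 10 libraries of matched depth (3 sham, 3 MI, 4 NECA), which share 1 estimate of the spread, with the contrast MI minus sham, two-sided, and Benjamini-Hochberg adjustment over all 9505 genes tested. The script was tested on simulated counts. Means are given with the SD in the plots, and fold changes with their SE. Depth was 959840 to 1330259 counts a library, so a gene near 3 counts per library is measured poorly, and intervals of counting error are wide there. The tests also used limma 3.58.1 and DESeq2 1.42.0 as alternatives, and the 22 alternatives covered scaling, filtering, the shape of the fit, the replicate block and each mouse left out.

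Genes were named by rule: those past the threshold, then the smallest unadjusted p without overlap of the groups and with a group mean of at least 10 CPM, filled to 10 in each direction, and of each list the 2 most abundant and the 2 with the smallest p. The fill left out predicted Gm and Rik names, rows without a name, mitochondrially encoded genes, pseudogenes and ribosomal protein genes. Other list members, and the genes named from the fit without sham 3 and MI 3, were chosen after their values were seen. The comparison and all 56 lists were chosen with earlier results of these data known. Lists with fewer than 3 tested members were given no median. List means used log2 CPM with a prior count of 2. Some genes of the lists are counted but not reported here by name. Genome coordinates were left out because the annotation at hand is of another build.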

Additional observations from a re-analysis of the deposited data

How the results depend on the processing

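The count of genes higher in MI, 4 in the reported fit, was 0 in the fit of the 6 libraries alone, with limma on log2(TPM + 1) and without robust shrinkage, 2 with unscaled library totals, 118 without a filter on low counts, and 28 without sham 3 and MI 3, an alternative chosen after seeing the data. The count of genes lower in MI, 3 in the reported fit, was 0 in the fit of the 6 libraries alone and with limma, 5 with a filter of at least 10 CPM and with DESeq2, 73 without a filter, and 41 without sham 3 and MI 3. Leaving out 1 mouse at a time, the count higher ranged from 0 to 30 and the count lower from 0 to 20. The fit without a filter tested 20308 genes and contained all 7 genes of the reported fit. The causes of the other shifts were not tested.

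With the replicate number as a block, 3 genes were higher (2 of them shared with the reported fit) and 5 lower (3 shared). Sham and MI mice of the same number deviated from their group means with r = -0.0347, 0.162 and 0.191, so the numbers were not taken to pair the mice. In 4262 recomputed fold changes of named genes, 4099 stayed on their side of the threshold, 93 passed it, 70 fell short of it and none that passed in either fit changed sign. Of 1143 recomputed list medians, 42 moved by more than the spread between mice. Unscaled library totals shifted the median of all genes by 0.0808 on the log2 scale. At 959840 to 1330259 counts a library, genes near 3 counts were measured with wide counting error.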

Other observations

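Some further genes separated the sham mice from the MI mice without passing the test, and none of the genes named here passed it. Values are given for sham 1 to 3 and then for MI 1 to 3, and after a median its lowest and highest with 1 of these mice left out. Adrenergic signalling to the heart runs through adenylyl cyclase and protein kinase A. Adcy5, a main cardiac adenylyl cyclase, was at 97.1, 88.4 and 79.4 CPM in the sham mice and 45.5, 70.2 and 43.2 CPM in the MI mice (log2 fold change -0.74 ± 0.20, edgeR adjusted p = 0.229), and Prkaca, the catalytic subunit of the kinase, at 204, 168 and 162 and 149, 159 and 116 CPM. Gnai2, an inhibitory G protein, went the other way at 173, 156 and 159.5 and 194, 197 and 230.2 CPM. Over the 18 adrenergic genes tested, of which 12 were lower and 6 higher, the median was -0.14, -0.23 without sham 1 to -0.10 without MI 3.

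Thioredoxin genes, which keep proteins reduced, differed in direction between compartments. The cytosolic Txn1 was at 32.4, 30.3 and 41.9 CPM in sham and 47.3, 44.6 and 63 CPM in MI, and the mitochondrial Txn2 at 204, 219 and 181 and 162, 164 and 138 CPM, neither with overlap. Txnip, an inhibitor of thioredoxin, was at 244, 303 and 262 and 354, 487 and 307 CPM. The 27 genes of oxidative stress, 14 higher and 13 lower, had a median of 0.01, -0.06 without sham 3 to 0.05 without sham 1. Adenosine, which NECA mimics, acts on receptors whose genes had few counts in these libraries. Adora1 was at 11.8, 13.1 and 25 and 8.93, 8.91 and 10.3 CPM and Adora2a at 6.87, 11.5 and 3.67 and 8.04, 2.23 and 9.4 CPM. Entpd1, which begins the breakdown of extracellular ATP toward adenosine, was at 7.85, 9.83 and 15.4 and 22.3, 24.5 and 21.6 CPM (log2 fold change 1.01 ± 0.31, edgeR adjusted p = 0.247).

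The mitochondrially encoded gene mt-Co3 did not follow the groups. It was at 3140, 1387 and 2.21 CPM in the sham mice and 1.79, 3460 and 1.88 CPM in the MI mice, high in sham 1, sham 2 and MI 2 and within a few counts of 0 in sham 3, MI 1 and MI 3. mt-Co1, which encodes another subunit of the same respiratory complex, was at 111300, 102800 and 75950 and 92730, 108300 and 64300 CPM and showed no such split.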
